A study of Homo sapiens with 4 samples.

Results

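Promoter-free mid-range loops were H3K27ac-associated contacts whose anchors lay at least 50 kb and less than 500 kb apart and of which neither 5 kb anchor held the start of any annotated transcript. They were defined by position alone, although they were chosen with earlier results of these data known. The WT list held 6350 of them among 27289 loops, of which 18614 were mid-range, and the STAG2-KD list held 5365 among 25621 loops, of which 16518 were mid-range. The union of the lists held 9820 such loops with 9759 distinct anchors.

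In H3K27ac HiChIP, DNA ends that meet in the nucleus are ligated and the products are enriched with an antibody against histone H3 acetylated at lysine 27. The cells were M14, an established human melanoma line, kept under puromycin and equipped with a short hairpin RNA that doxycycline switches on to deplete STAG2, a cohesin subunit. The groups were WT, grown without doxycycline, and STAG2-KD, grown with it for 5 days, so both groups carried the hairpin construct and doxycycline itself was given to the STAG2-KD group alone. The labels list 2 samples per group and 1 loop list per group was analysed, which holds positions on hg19 without read counts, so the depth behind a loop is unknown. With 1 list per group there was no replicate check and no test between groups. The 95% exact Clopper-Pearson intervals given below cover the counting of loops only, and loops that share an anchor are not independent.

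Enhancers are stretches of regulatory DNA that bind transcription factors and act on promoters at a distance, and active ones carry H3K27ac. Several enhancers often lie together in the introns or the flanks of 1 gene, and a contact between a pair of them is then seen as a loop with no promoter at either end. Cohesin extrudes DNA loops and stops at CTCF, and its STAG subunit occurs in the alternative forms STAG1 and STAG2. In melanoma the lineage factor MITF and its partners use such distal elements, while AP-1 factors are known for binding enhancers downstream of MAPK signalling.

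The anchors that carried the most of these contacts are shown by 8 stretches of 100 bases from the plus strand of the GRCh37 (hg19) sequence, each the stretch with the most kinds of motif match in its 5 kb anchor. The capitals mark the AP-1 element TGANTCA in 7 of them and the interferon element GAAACNGAA, on either strand, in 1 of them. The first 5 come from the anchors with the most loops and the other 3 from the busiest anchor of clusters described further on. No anchor of the 8 held the CTCF core AGGGGGCGC, and 79.7% of all promoter-free 5 kb bins held the AP-1 letters and 30.6% the interferon letters, so a match marks letters and not a bound site. The stretches lie at chr2:12456802-12456901 (TRIB2 flank), chr1:117031369-117031468 (CD58 flank), chr7:111572594-111572693 (DOCK4 intron), chr12:24710421-24710520 (SOX5 intron), chr13:80513752-80513851 (between genes, nearest start NDFIP2), chr20:50127021-50127120 (NFATC2 intron), chr2:153045573-153045672 (FMNL2 cluster, nearest start STAM2) and chr6:20978468-20978567 (CDKAL1 intron).
TRIB2 flank: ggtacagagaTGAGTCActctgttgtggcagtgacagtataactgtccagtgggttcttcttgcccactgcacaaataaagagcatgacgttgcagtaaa
CD58 flank: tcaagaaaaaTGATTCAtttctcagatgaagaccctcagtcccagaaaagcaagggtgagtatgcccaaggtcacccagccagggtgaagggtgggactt
DOCK4 intron: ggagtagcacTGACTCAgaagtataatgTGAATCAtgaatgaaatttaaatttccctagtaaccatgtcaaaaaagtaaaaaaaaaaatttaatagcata
SOX5 intron: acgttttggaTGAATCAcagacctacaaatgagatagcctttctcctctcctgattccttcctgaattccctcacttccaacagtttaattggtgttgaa
NDFIP2 flank: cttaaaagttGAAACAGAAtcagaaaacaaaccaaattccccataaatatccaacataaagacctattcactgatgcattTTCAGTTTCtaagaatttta
NFATC2 intron: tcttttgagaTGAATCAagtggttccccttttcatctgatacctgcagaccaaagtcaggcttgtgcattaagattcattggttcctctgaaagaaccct
FMNL2 cluster: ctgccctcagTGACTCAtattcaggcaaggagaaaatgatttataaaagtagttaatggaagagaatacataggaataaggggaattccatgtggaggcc
CDKAL1 intron: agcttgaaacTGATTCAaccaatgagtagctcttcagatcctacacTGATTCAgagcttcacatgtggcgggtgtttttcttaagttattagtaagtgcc

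Promoter-free loops were shared between the lists less often than other mid-range loops, and fewer of them were found in STAG2-KD. The same anchor bins were joined in both lists by 1895 loops, which was 29.8% of the WT loops (interval 28.7 to 31.0) and 35.3% of the STAG2-KD loops (34.0 to 36.6). The WT list thus held 4455 loops absent from the STAG2-KD list, where 62% of all WT loops were absent, and the STAG2-KD list held 3470 loops absent from the WT list, where 59.5% of all STAG2-KD loops were absent. With 1 promoter anchor the shared share was 34.9% in WT (33.8 to 35.9) and 37.9% in STAG2-KD (36.8 to 39.1). With promoters at both anchors it was 41.1% (39.7 to 42.6) and 46.1% (44.5 to 47.6), so sharing rose with the number of promoter anchors in each list. A loop missing from a list may lie just under the limit of the loop caller as well as be absent from the cells.

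**Figure D1:**
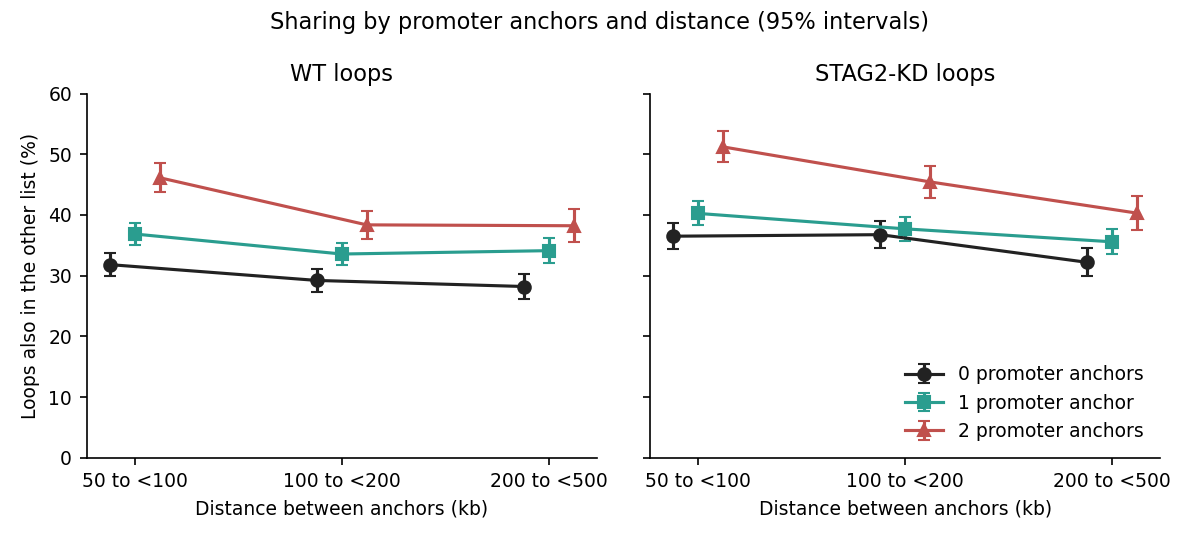
Share of mid-range loops found with the same bins in the other list (y axis, percent) by distance between anchors (x axis, kb) for loops with 0, 1 or 2 promoter anchors, with 95% exact binomial intervals. Promoter-free loops of WT sit at 31.8%, 29.2% and 28.2% in the 3 distance classes, below both other kinds, and in STAG2-KD their interval overlaps that of loops with 1 promoter anchor in each class.

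The order by promoter anchors held in each distance class of both lists. At 50 to under 100 kb the shared share of WT loops was 31.8%, 36.9% and 46.1% for 0, 1 and 2 promoter anchors, and at 200 to under 500 kb it was 28.2%, 34.1% and 38.2%. In STAG2-KD the promoter-free class and the class with 1 promoter anchor stood at 36.5% and 40.3% at 50 to under 100 kb, 36.8% and 37.7% at 100 to under 200 kb, and 32.2% and 35.6% at 200 to under 500 kb, with intervals that overlapped within each class but not over all distances. At the shorter limit of the class, 269 promoter-free WT loops of 50 kb were shared at 36.8% and the 292 loops of 45 kb just outside it at 31.2%, while the counterparts in STAG2-KD were 267 loops at 37.1% and 259 loops at 35.1%. At the longer limit the lists held 11 and 7 loops of 495 kb against 11 and 11 of 500 kb. Shared promoter-free loops had a median distance of 120 kb, and WT-only and STAG2-KD-only loops had one of 130 kb each.

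Many private loops joined anchors that the other list used in some other loop. Both anchors of 40.8% of the WT-only loops (39.3 to 42.2) carried a loop in the STAG2-KD list, and neither did in 8.98% (8.16 to 9.86). Among STAG2-KD-only loops both anchors were in use in WT for 42.8% (41.1 to 44.5) and neither for 10.1% (9.08 to 11.1). Most private loops therefore had at least 1 anchor in use in the other list. For loops with 1 promoter anchor, the most similar class, both anchors were in use in 44.2% of the WT-only and 46.1% of the STAG2-KD-only loops. For loops with promoters at both ends, both anchors were in use in 54.2% of the WT-only and 62.1% of the STAG2-KD-only loops. Sharing also fell along each list, from 40.5% in the first 20% of each chromosome's lines to 20.5% in the last 20% in WT and from 44.7% to 28.3% in STAG2-KD. This fall was not particular to promoter-free loops. With 1 promoter anchor it was from 49.0% to 23.9% in WT and from 49.9% to 28.6% in STAG2-KD. With 2 it was from 54.3% to 32.1% and from 55.3% to 39.5%.

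The fall in number with STAG2 knockdown was larger for promoter-free than for promoter-linked mid-range loops. The STAG2-KD list held 0.845 times as many promoter-free loops as the WT list, against 0.919 times for loops with 1 promoter anchor and 0.893 times for loops with 2. Of the private promoter-free loops 43.8% were in STAG2-KD (42.7 to 44.9), against 46.7% (45.7 to 47.7) with 1 promoter anchor and 45.02% (43.6 to 46.4) with 2, and the last interval overlaps that of the promoter-free loops. The share was lowest at 100 to under 200 kb, at 41.5% (39.7 to 43.4). Outside the mid-range it was 52.1% (50.3 to 53.8) for promoter-free loops of 20 to 45 kb. For those of 500 kb and over it was 54.2% (49.96 to 58.3), an interval that included 50%. This pattern was not particular to promoter-free loops. With 1 and 2 promoter anchors the share was also lowest in the mid-range at 100 to under 200 kb, at 45.5% and 42.8%. At 20 to 45 kb it was 51.9% and 49.9% for these loops, and at 500 kb and over 55.7% and 57.3%.

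The anchors lay in introns more often than promoter-free DNA at large. Of the 9759 distinct anchors, 40.2% (39.3 to 41.2) lay wholly within introns of protein-coding genes, 16.9% (16.2 to 17.7) overlapped an exon, 14.5% (13.8 to 15.2) lay in noncoding genes alone and 28.4% (27.5 to 29.3) in no annotated gene. Among all 449198 promoter-free bins of the autosomes these shares were 29.2%, 15.1%, 17.1% and 38.7%. WT-only and STAG2-KD-only loops used the same kinds of place, with 40.4% and 40.5% of their anchors in introns and 28.6% and 27.6% in no gene. Exons were overlapped by 15.9% of WT-only anchors (14.97 to 16.9) and 17.5% of STAG2-KD-only anchors (16.4 to 18.6).

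**Figure D2:**
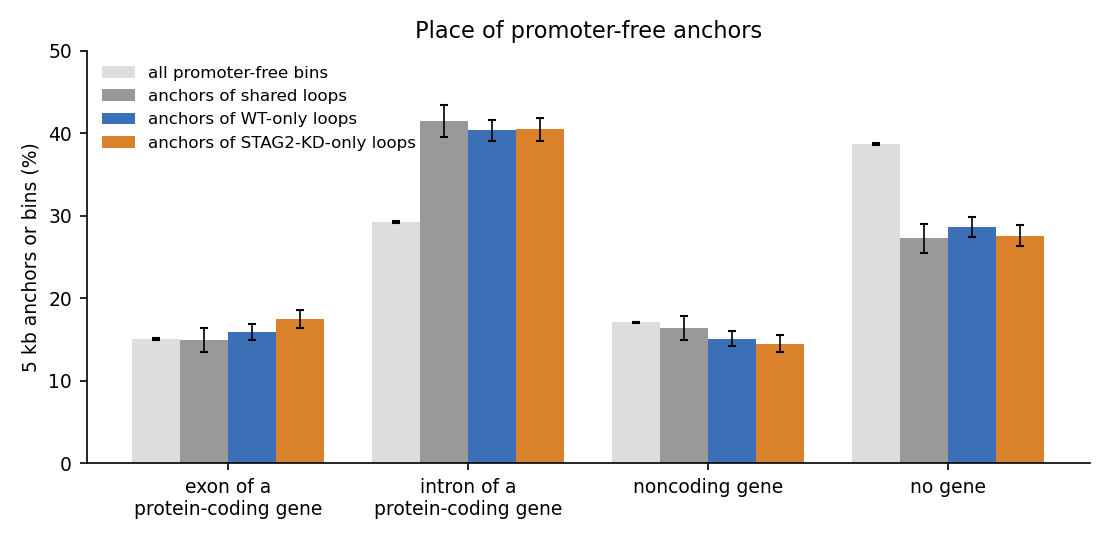
Place of the 5 kb anchors of shared, WT-only and STAG2-KD-only promoter-free loops, and of all promoter-free 5 kb bins of the autosomes (y axis, percent of anchors or bins, with 95% exact binomial intervals). The 3 sets of anchors stand at 40.4% to 41.5% in introns, above the 29.2% of all bins, and at 27.2% to 28.6% outside genes, below the 38.7% of all bins.

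Loops that stayed inside the body of 1 protein-coding gene made up 28.5% of the WT loops (27.4 to 29.6) and 28.6% of the STAG2-KD loops (27.4 to 29.9), with median distances of 95 kb and 90 kb. Both anchors lay outside protein-coding genes in 29.3% and 28.1%, 1 anchor did in 31.4% and 31.6%, and the anchors lay in different genes in 10.8% and 11.7%. The shared share in WT ran from 28.1% for loops between different genes to 31.2% for those inside 1 gene.

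The gene bodies that held the most such loops were long genes, and their loops changed in different directions. MAML2 and MAML3, coactivators of Notch signalling, held 50 and 47 loops, with 28 in WT and 31 in STAG2-KD at MAML2 and 31 and 24 at MAML3. CDKAL1, a tRNA-modifying enzyme, held 28 loops in WT and 3 in STAG2-KD, all of them also in WT. SEMA5A, a semaphorin of axon guidance, held 23 and 8, and SGCD, a sarcoglycan of the muscle membrane complex, 29 and 15. SOX5 held 21 and 9 and MITF 21 and 15. The opposite order was seen in IGF1R, the receptor of insulin-like growth factor 1, with 10 loops in WT and 22 in STAG2-KD, and in FMNL2, a formin that elongates actin filaments, with 13 and 22. ATXN1, a chromatin-binding protein, held 15 and 14, of which 2 were shared.

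Anchors lay nearer to protein-coding genes than promoter-free bins in general, although none held a start. The median distance to the nearest protein-coding transcript start was 28.95 kb for WT anchors and 26.99 kb for STAG2-KD anchors, against 51.5 kb for all promoter-free bins. A start was 100 kb or more away for 20.9% of the anchors in WT and for 19.0% of those in STAG2-KD, against 37.1% of bins. Both anchors had the same nearest gene in 53.5% (WT) and 52.2% (STAG2-KD) of loops. No protein-coding start lay between the anchors in 38.0% (36.8 to 39.2) of WT loops, 35.0% (33.7 to 36.3) of STAG2-KD loops and 33.3% (31.7 to 34.9) of the STAG2-KD-only loops, so those loops spanned a start more often.

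Most of the loops used an anchor that also contacted a promoter. In WT 78.3% of the loops (77.3 to 79.4) and in STAG2-KD 77.9% (76.7 to 79.0) had at least 1 anchor with a further loop, of any length, to a bin with a transcript start. Counted over distinct anchors, 42.6% of those in WT (41.4 to 43.8) and 43.8% of those in STAG2-KD (42.5 to 45.04) made such a contact. Loops with promoter contacts from both anchors were shared at 44.8% in WT (42.6 to 47.0) and 45.5% in STAG2-KD (43.2 to 47.9). With such a contact from 1 anchor alone the shares were 23.1% (21.5 to 24.6) and 31.5% (29.6 to 33.4). Without any such contact the shares were 21.7% (19.5 to 23.9) and 27.7% (25.2 to 30.3). In each list the last 2 intervals overlapped, so the higher sharing was that of loops with contacts from both anchors. Sharing also rose with the number of promoter-free loops at the less used anchor, from 22.4% at 1 loop to 58.4% (53.2 to 63.4) at 5 or more in WT and from 28.4% to 65.7% (59.3 to 71.7) in STAG2-KD.

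A few anchors carried many loops, while 64.8% of WT anchors and 65.3% of STAG2-KD anchors carried 1. The mean number per anchor was 1.82 ± 1.68 across the 6982 WT anchors and 1.75 ± 1.46 across the 6147 STAG2-KD anchors (SD). The 5 busiest anchors, whose sequences are shown above, each had fewer loops after knockdown. The anchor at chr2:12455001-12460000, in a noncoding gene 399.5 kb from the start of TRIB2, had 27 loops in WT and 16 in STAG2-KD, 10 of them shared. At the CD58 flank, chr1:117030001-117035000, the counts were 20 and 16, and in the DOCK4 intron, chr7:111570001-111575000, they were 16 and 12 with 3 shared. The SOX5 intron anchor, chr12:24710001-24715000, had 19 and 14. The anchor at chr13:80510001-80515000, 397.6 kb from its nearest start, that of NDFIP2, had 19 and 13. SPRY2 and NDFIP2 were the nearest genes of its cluster, which made 15 loops in WT and 9 in STAG2-KD to the SPRY2 promoter. TRIB2 is a pseudokinase, CD58 a cell adhesion ligand, DOCK4 an activator of small GTPases and NDFIP2 an adaptor of ubiquitin ligases.

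Loops that used the same or adjoining anchors were joined into clusters across both lists, and clusters of 10 or more loops were called dense. Of 1718 clusters, 271 were dense, with a median span of 540 kb (130 kb to 1825 kb) and a median of 15 anchors. They held 63.3% of the WT loops (62.1 to 64.5) and 61.6% of the STAG2-KD loops (60.3 to 62.9). Every dense cluster had loops in both lists, and 15 of them had no loop in common. WT had more loops in 170 of them, STAG2-KD in 88, and 13 were equal. At least 2 times as many loops in WT were counted in 62 dense clusters (22.9%), and at least 2 times as many in STAG2-KD in 25 (9.23%). The share of private loops found in STAG2-KD was 48.1% (44.02 to 52.3) for loops that stood alone and 40.9% (38.7 to 43.1) in clusters of 30 or more.

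The largest clusters differed in which state held more loops. The cluster around LYZL1, SVIL and BAMBI, chr10:28950001-30140000, was the largest, with 66 loops in WT and 61 in STAG2-KD, 30 of them shared. SVIL binds actin and BAMBI is a decoy receptor of TGF-beta signalling. The MITF and FRMD4B cluster, chr3:69135001-70105000, had 45 and 34, with 20 of its 37 anchors in introns. The KRR1 and PHLDA1 cluster, chr12:75900001-76580000, had 46 and 53, the CD44 and PDHX cluster, chr11:34605001-35410000, 43 and 35, and the THBS1 cluster, chr15:39005001-40490000, 36 and 37. CD44 is a hyaluronan receptor and THBS1 a matrix glycoprotein, and in the KRR1, CD44 and THBS1 clusters at most 15 loops were shared. The cluster beside DUSP4, a phosphatase of MAP kinases, chr8:29195001-29875000, had 29 and 38.

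**Figure D3:**
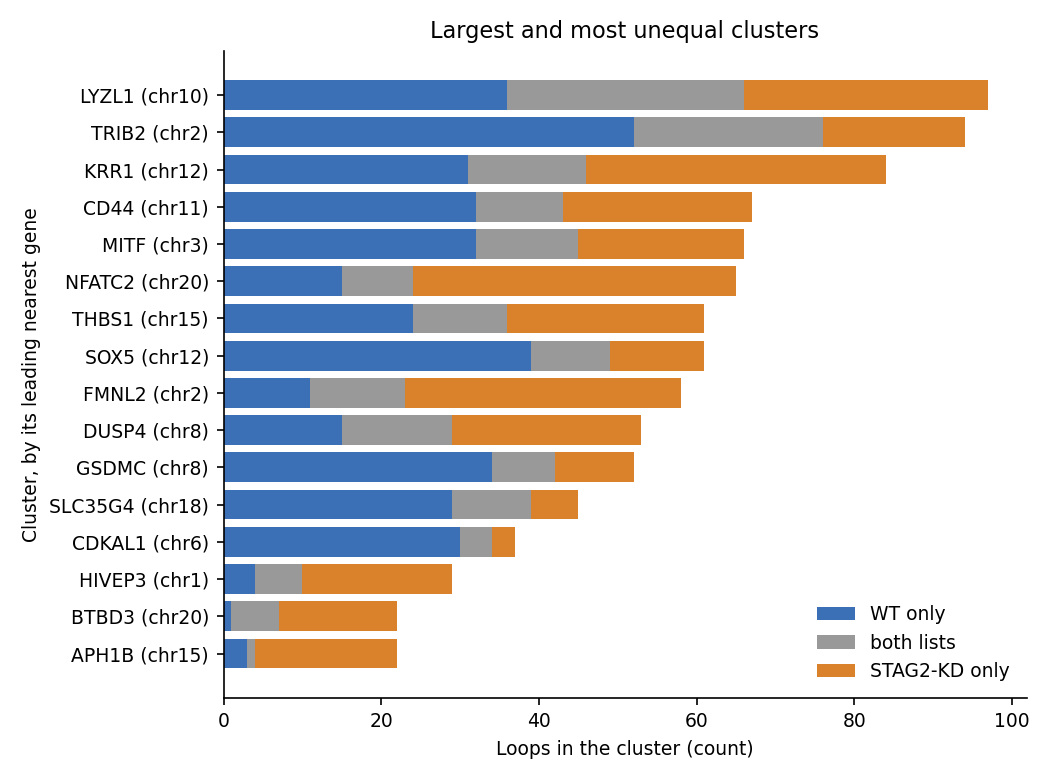
Number of promoter-free mid-range loops (x axis) found in WT alone, in both lists and in STAG2-KD alone, for the 10 clusters with the most loops and the 5 clusters with the largest excess in each direction, named by their leading nearest gene (y axis). TRIB2, with 52 WT-only and 18 STAG2-KD-only loops, and NFATC2, with 15 and 41, are of opposite composition, and the LYZL1 cluster has the most loops in both lists, at 30.

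The clusters with the largest WT excess surrounded TRIB2, SOX5, CDKAL1, the GSDMC and MYC flank, and the SLC35G4 and PIEZO2 flank. The TRIB2 cluster, chr2:11985001-13100000, had 76 loops in WT and 42 in STAG2-KD, and 48 of its 50 anchors lay in noncoding genes. The SOX5 cluster, chr12:24215001-24980000, had 49 and 22, with 22 of 37 anchors in introns. SOX5 encodes a SOX transcription factor, and its promoter was contacted from these anchors by 1 loop in WT and 0 in STAG2-KD. The busiest anchor of the cluster, with 25 of its 61 loops, has its midpoint 2.815 kb from a SOX5 start and so adjoins a promoter bin. The CDKAL1 cluster, chr6:20560001-21590000, which reached toward SOX4, had 34 and 7. Between GSDMC and MYC, chr8:129400001-130715000, there were 42 and 18 promoter-free loops, while the same anchors made 10 loops in WT and 11 in STAG2-KD to the promoter of MYC, a growth-promoting transcription factor. The cluster near SLC35G4 and PIEZO2, a mechanosensitive channel, chr18:10850001-11565000, had 39 and 16. SLC35G4 had the nearest start for 12 of its 23 anchors and PIEZO2 for 11, and 3 anchors lay in the body of PIEZO2.

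The clusters with the largest STAG2-KD excess surrounded NFATC2, FMNL2, HIVEP3, CA12 with APH1B, and BTBD3. The NFATC2 cluster, chr20:49600001-50705000, had 24 loops in WT and 50 in STAG2-KD, and its loops to the promoter of NFATC2, a calcineurin-dependent transcription factor, numbered 11 and 18. The FMNL2 cluster, chr2:153045001-153490000, had 23 and 47, while contacts to the FMNL2 promoter numbered 8 and 9. HIVEP3 is a zinc finger transcription factor, and its cluster, chr1:42040001-42790000, had 10 and 25. The cluster of CA12, a carbonic anhydrase, and APH1B, a gamma-secretase subunit, chr15:63310001-63700000, had 4 and 19 with 1 shared. At BTBD3, chr20:11655001-12340000, promoter-free loops numbered 7 and 21, whereas these anchors made 9 loops in WT and 5 in STAG2-KD to the BTBD3 promoter, so the numbers of distal and promoter contacts moved in opposite directions there.

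**Figure D4:**
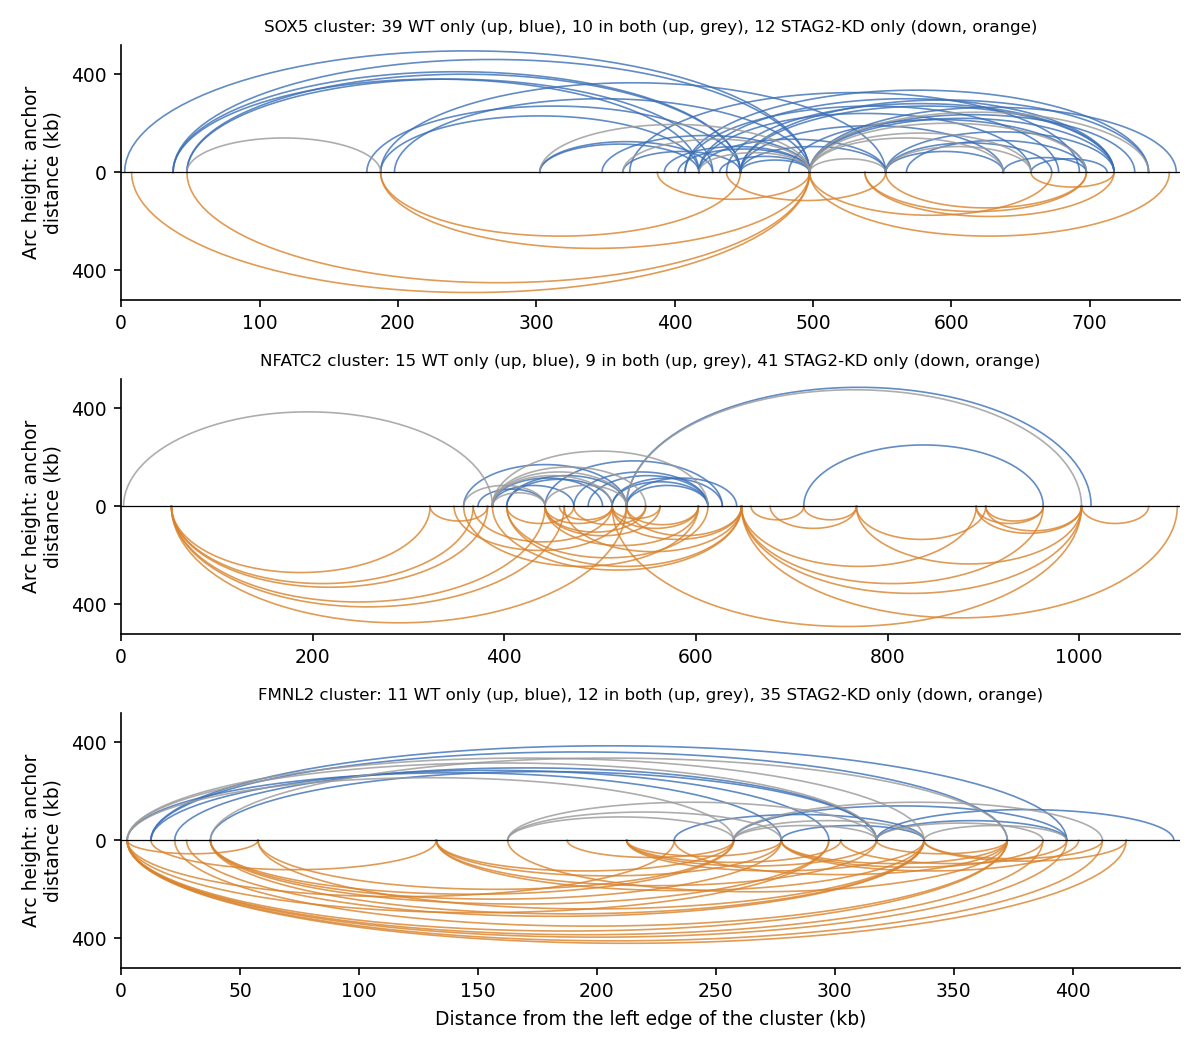
Promoter-free mid-range loops of the SOX5, NFATC2 and FMNL2 clusters drawn as arcs from anchor to anchor (x axis, kb from the left edge of the cluster; arc height, anchor distance in kb), with WT-only and shared loops above the line and STAG2-KD-only loops below it. SOX5 has 39 WT-only against 12 STAG2-KD-only loops, NFATC2 15 against 41 and FMNL2 11 against 35, and many private arcs in each cluster meet at anchors used by both lists.

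Loops nearest to genes of the melanocyte lineage were mostly fewer after STAG2 knockdown, and those nearest to MAPK feedback genes were more often more numerous. Nearest is meant by position and does not show that a loop contacts the gene. The gene lists were chosen with earlier results of these data known, so the counts and intervals of the lists are description and not a test. Across all protein-coding genes, 863 of 19222 had the nearest start to an anchor of 5 or more loops. Of these 863 genes 479 (55.5%) had more loops in WT and 310 (35.9%) more in STAG2-KD, with a median difference of -1.0 loops, STAG2-KD minus WT. Of 29 annotated genes of the melanocyte lineage 11 had 5 or more loops, of which 10 had more in WT and 1 more in STAG2-KD, with a median difference of -8.0. Of 17 MAPK feedback genes 8 had 5 or more, of which 2 had more in WT and 6 more in STAG2-KD, with a median of 4.0.

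Melanocyte lineage genes were nearest to 205 loops in WT and 89 in STAG2-KD, 45 of them shared, and 21.6% of the private ones (16.1 to 27.9) were in STAG2-KD. Over all private promoter-free loops this share was 43.8% (42.7 to 44.9). MITF, the master regulator of the lineage, was nearest to 40 loops in WT and 26 in STAG2-KD, and SOX5 to 47 and 21. Without both of these genes the counts were 118 and 42. SOX6, a close relative of SOX5, had 21 and 6, LEF1, the nuclear effector of Wnt signalling, 18 and 6, and ZEB2, a zinc finger factor that melanocytes express, 15 and 8. SNAI2, a neural crest transcription factor, had 14 and 3, and the AP-2 factors TFAP2B and TFAP2A had 10 and 2, and 6 and 3. DCT, an enzyme of melanin synthesis, had 6 and 1 and BCL2A1, a survival protein of the BCL2 family, 7 and 2. SOX10, which specifies melanocytes, was the exception among the 11 genes, with 6 and 7 loops of which 5 were shared.

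MAPK feedback genes were nearest to 121 loops in WT and 150 in STAG2-KD, and 58.5% of the private loops (50.7 to 66.0) were in STAG2-KD. Without PHLDA1 and DUSP4 the share was 59.5%, with an interval of 47.4 to 70.7 that included 50%. The share over all private promoter-free loops was 43.8%. SPRY4 and SPRY1, inhibitors of receptor tyrosine kinase signalling, had 9 and 18 loops, and 2 and 9, in WT and STAG2-KD, while SPRY2 of the same family had 18 and 19. DUSP4 had 28 and 37, PHLDA1, which is induced by ERK signalling, 37 and 43, and SPRED2, an inhibitor of RAS to ERK signalling, 3 and 5. The opposite order was found for DUSP10, a phosphatase of stress-activated kinases, with 10 and 7, and for the ETS factor ETV5, with 6 and 3. Loops of any kind at a start numbered 5 and 5 for SPRY4, 1 and 2 for SPRY1 and 20 and 13 for SPRY2. They numbered 0 and 0 for DUSP4, 4 and 6 for PHLDA1 and 0 and 7 for SPRED2. For DUSP10 they numbered 11 and 14, and for ETV5 2 and 2.

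**Figure D5:**
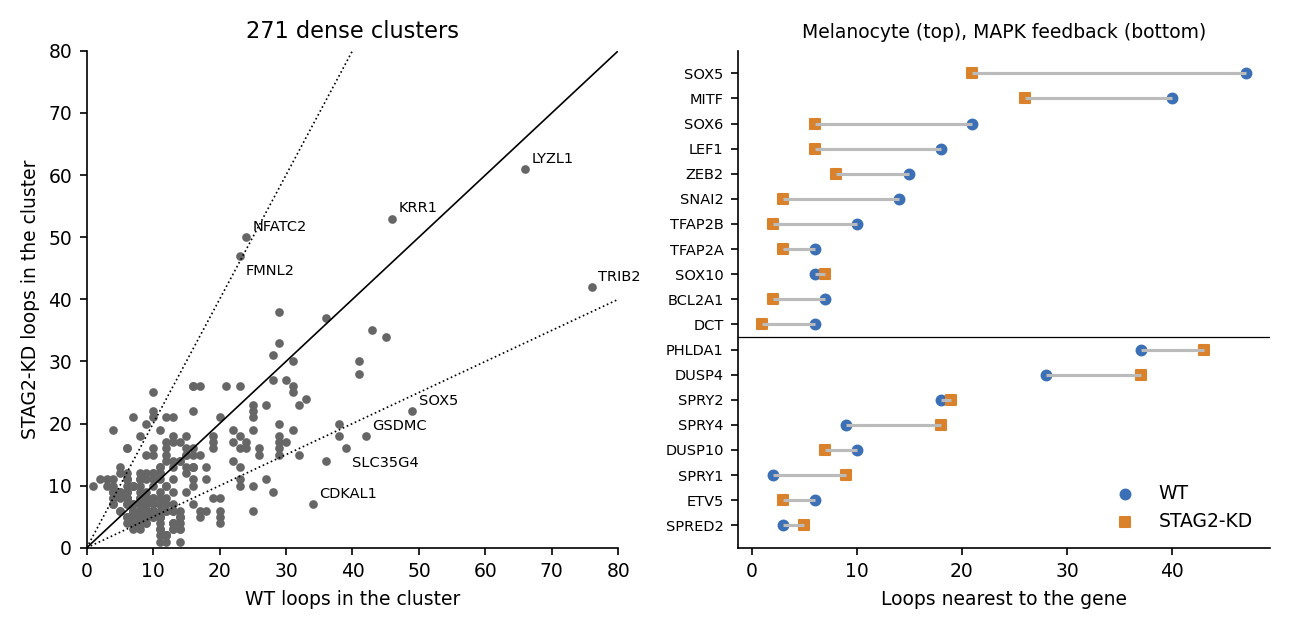
Left, promoter-free mid-range loops per dense cluster in WT (x axis) and STAG2-KD (y axis), with the line of equal counts and dotted lines at 2 times as many in either list; 170 of 271 clusters lie on the WT side. Right, loops nearest to each melanocyte lineage gene (above the line) and MAPK feedback gene (below it) with 5 or more loops in WT and STAG2-KD; 10 of 11 and 2 of 8 genes have more in WT.

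Genes of the mesenchymal-like melanoma state were nearest to 30 loops in WT and 51 in STAG2-KD, and 67.8% of the private loops (54.4 to 79.4) were in STAG2-KD. Of 24 such genes 5 had 5 or more loops, of which 1 had more in WT, 3 more in STAG2-KD and 1 was equal. Over all protein-coding genes 863 of 19222 had 5 or more, of which 55.5% had more in WT and 35.9% more in STAG2-KD. TNC, the matrix protein tenascin C, led them with 6 loops in WT and 18 in STAG2-KD, 1 of them shared. LOXL2, a lysyl oxidase of the matrix, had 2 and 7, CDH2, which encodes N-cadherin, 4 and 5, FN1, which encodes fibronectin, 6 and 6, and VIM, which encodes vimentin, 3 and 2. Without TNC and FN1 the list had 18 and 27 loops, and the STAG2-KD share of 65.5% had an interval of 45.7 to 82.1, which included 50%. The share over all private promoter-free loops was 43.8%.

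The AP-1 and TEAD genes did not lean one way, with 55 loops in WT and 51 in STAG2-KD. Of 24 such genes 3 had 5 or more loops: TEAD1, the DNA-binding partner of YAP, with 24 and 18, WWTR1, the coactivator TAZ, with 20 and 22, and FOS, an AP-1 subunit, with 5 and 1. Of 25 interferon pathway genes, IFNGR2, a subunit of the interferon gamma receptor, was the 1 with 5 or more loops, at 4 and 5, and the list had 8 and 11 distinct loops in all. Cohesin and CTCF genes, 12 in number, were nearest to 4 and 3 loops. Markers of other cell types were nearest to 1 loop in WT and 0 in STAG2-KD for keratinocytes and the same for endothelium, and to none for lymphoid cells. These loops lay nearest to 1 of 8 keratinocyte, 1 of 5 endothelial and 0 of 8 lymphoid genes. Over all protein-coding genes 3245 of 19222 were nearest to a loop, so these low counts are not read as a result about the markers. Loops of any kind met a start of 24 of 29 melanocyte lineage genes, of 2 of 8 keratinocyte, 2 of 8 lymphoid and 0 of 5 endothelial genes. They also met a start of 14 of 17 MAPK feedback, 19 of 24 AP-1 and TEAD and 18 of 25 interferon pathway genes. For mesenchymal-like genes the count was 15 of 24 and for cohesin and CTCF genes 8 of 12. A high count was thus not particular to the melanocyte lineage, and the share over all genes is not given here.

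The anchor sequences held AP-1 letters, the CTCF core and the E-box more often than promoter-free DNA in general, although the CTCF core was scarce in both. Each motif was searched on both strands, as TGANTCA for AP-1, AGGGGGCGC for the CTCF core, TCACGTG for the E-box that MITF binds, AACAATGG for SOX factors and GAAACNGAA for interferon-regulated factors. The AP-1 letters were found in 85.4% of the anchors (84.7 to 86.1) against 79.7% of all promoter-free bins and 74.7% of the promoter anchors of mid-range loops. Use of an anchor is counted below over promoter-free mid-range loops. An anchor used in 1 list alone may thus carry loops of other kinds in the other list. Promoter-free anchors of loops with 1 promoter anchor that were in none of the loops described, the most similar set, held them in 81.8% (80.6 to 82.9), an interval that overlapped that of anchors used in WT alone. Anchors used in WT alone held them in 82.7% (81.4 to 83.9), with 1.84 ± 1.38 matches each (SD over 3612 anchors). Anchors used in STAG2-KD alone held them in 86.8% (85.5 to 88.0), with 2.16 ± 1.59 matches each (SD over 2777 anchors), and the 3370 anchors used in both lists in 87.2% (86.0 to 88.3). WT-alone anchors thus lay below both other sets in AP-1 letters, and the mean GC content of the 3 sets was 41.9%, 42.6% and 42.6%.

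The CTCF core was found in 1.07% of the anchors (0.872 to 1.29), against 0.642% of all promoter-free bins and 7.89% of promoter anchors. The promoter-free anchors of loops with 1 promoter anchor held it in 1.33% (1.01 to 1.72), which overlapped the interval of the anchors described. Both anchors of a loop held it in 4 WT loops and 2 STAG2-KD loops. The E-box was found in 16.9% of anchors against 14.7% of bins, the SOX letters in 18.8% against 18.7%, and the interferon element in 29.7% against 30.6%. In the promoter-free anchors of loops with 1 promoter anchor these shares were 16.4%, 16.3% and 26.4%. For these 3 motifs the intervals of anchors used by promoter-free mid-range loops in WT alone and in STAG2-KD alone overlapped. The mean GC content was 42.3% in the anchors and 40.2% in all promoter-free bins.

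The fall after knockdown was spread over most chromosomes. Promoter-free loops were fewer in STAG2-KD on 18 of 22 autosomes, and the share of private loops found in STAG2-KD had an interval below 50% on 13 and above it on 0. Chromosome 6, which carries CDKAL1, had 434 loops in WT and 275 in STAG2-KD, and 34.4% (30.3 to 38.7) of its private loops were in STAG2-KD. Chromosome 14 had 121 and 77. Chromosome 20, which carries NFATC2 and BTBD3, had 239 and 264 loops, a share of 53.6% (48.2 to 58.9), and with 3.79 and 4.19 loops per Mb it was the densest of the autosomes in both lists.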

How the data were processed

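The titles name 2 WT and 2 STAG2-KD samples of H3K27ac HiChIP in M14 cells, and the 1 list per group was treated as that group's single measurement, since whether it merges replicates is not stated. Per the study's methods, the authors digested chromatin with MboI, aligned reads to hg19 with HiC-Pro, called peaks with hichip-peaks and loops with FitHiChIP. Tool versions are not given in the sources used here. The deposited positions carry no count or q-value, so depth is unknown and borderline loops can lower sharing between lists. A loop was shared when both 5 kb bins were the same. Promoters were transcript starts of GENCODE release 44 lifted to GRCh37, which has the build of the files, and genes are protein-coding unless stated. Of 25621 STAG2-KD lines, 1 lay off the 5 kb grid and was not among the loops described.

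Clusters joined loops with the same or adjoining anchors in the union of the lists. Shares have 95% exact Clopper-Pearson intervals, and no test was made between groups. The text names the 10 largest clusters, the 5 with the largest excess in each direction among clusters of 10 or more loops, the 5 busiest anchors, the 10 gene bodies that hold the most loops, and list genes nearest to 5 or more loops. The 10 genes nearest to the most loops were TRIB2, LYZL1, PHLDA1, KRR1, SOX5, FMNL2, MITF, NFATC2, LPIN1 and GSDMC. Gene lists held 30 melanocyte lineage, 24 mesenchymal-like, 24 AP-1 and TEAD, 25 interferon pathway, 17 MAPK feedback, 13 cohesin and CTCF, 8 keratinocyte, 8 lymphoid and 6 endothelial genes, less those not annotated on autosomes. The loops and lists were chosen with earlier results of these data known. The functions were tested on simulated data of 3000 loops and recovered 11 of 11 planted values. Tables were handled with pandas 2.3.3 and numpy 2.4.6 under Python 3.11.15, intervals came from scipy 1.17.1, and plots from matplotlib 3.10.9. One sequence is not reported here.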

Additional observations from a re-analysis of the deposited data

How the results depend on the processing

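Each list is the single measurement of its group, so no value has a replicate check, and loops short of the caller's limit cannot be told from absent contacts. No paired analysis was possible because there is 1 list per group. Of 53 alternative values for 26 results, 25 stayed within the interval of the value reported (counts within 1.5 times) and 28 did not. The order of WT and STAG2-KD, which differed by little, turned for loops outside genes with all annotated genes and for anchors with a promoter contact under both alternatives. With a start anywhere within 5 kb of an anchor counted as a promoter, 3372 WT and 2788 STAG2-KD loops were left. The shared shares rose to 35.1% and 41.3% when each anchor could lie within 1 bin and to 41.5% and 48.9% within 2 bins, and were 38.1% and 42.2% in the earlier 50% of the lines. With all annotated genes, 34.9% and 35.2% of loops lay inside 1 gene and 12.03% and 12.2% had both anchors outside genes. Dense clusters held 61.9% and 59.98% when only the same anchor joined loops, and 41.3% and 41.2% lay in clusters of at least 20. An anchor with a promoter contact was found in 80.8% and 80.9% of loops when the adjoining bin counted too, and in 64.4% and 65.3% with protein-coding starts only. In the central 2.5 kb of the anchors, a shorter window, matches were found in 0.523% for CTCF, 63.3% for AP-1, 8.46% for the E-box, 10.6% for SOX and 16.3% for the interferon element. Alternatives for the STAG2-KD share of private loops were chosen after seeing the data. It was 42.5% within 2 bins for all loops. For loops nearest to melanocyte lineage genes it was 15.3% within 2 bins and 15.5% without SOX5 and MITF. For MAPK feedback genes it was 58.1% within 2 bins (49.3 to 66.5), an interval that included 50%. The cause of these shifts was not tested where the alternative does not itself change the loops, bins or window counted.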
